A study of Mus musculus with 9 samples.

Results

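The subunits of the respiratory chain and of the ATP synthase were taken from a table of read counts of mouse colonic intestinal epithelial cells (IECs). A row was a member if its symbol was that of a subunit of complexes I to V: Nduf names with the letters a, b, c, s or v and a number, Sdha to Sdhd, Cyc1, names beginning with Uqcr, Cox4i, Cox5, Cox6, Cox7, Cox8 or Atp5, and the 13 protein genes of the mitochondrial genome. The rule found 97 of 46095 rows, 84 nuclear and 13 mitochondrial, and used no measured value. Atp5s and Atp5sl also met the rule by name, although they are not ATP synthase subunits. They are described apart but counted among the nuclear members. There were 4 libraries of Smad4Vil-KO mice (the single knockout) and 5 of Smad4Vil-KO;Setd2Vil-KO mice (the double knockout), in which Cre under the Villin promoter deletes floxed Smad4, or floxed Smad4 and Setd2, in the intestinal epithelium. By its labelled genotype every library carries the Smad4 deletion. The treatment, as the paper describes it, was the same for both genotypes. It was the carcinogen AOM (10 mg/kg, given at 8 weeks of age) followed by DSS (2%, 1 course) to injure the epithelium. The IECs were released from the colon with EDTA at 10 days. The comparison asks how loss of Setd2, which methylates histone H3 at H3K36, changed the RNA of these cells when Smad4 was already deleted, and no library with intact Smad4 was analysed here. The labels number the libraries and do not state that each came from a separate mouse, so p-values measure the spread between these libraries.

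Complexes I to IV of the inner mitochondrial membrane pass electrons from NADH and succinate to oxygen, and complexes I, III and IV pump protons as they do so. Complex V, the ATP synthase, lets the protons flow back and makes ATP. All complexes other than complex II combine subunits encoded in the nucleus, which are imported, with subunits encoded in the mitochondrial genome, which is transcribed from both strands as long precursors and processed into single RNAs. Colonocytes draw much of their energy from the mitochondrial oxidation of butyrate.

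Total counts were 12487129 to 17120202 per library. A count was worth 0.0594 to 0.0794 CPM (counts relative to the library total after scaling by edgeR's TMM factor), the unit of all levels below, and values are listed in order of the replicate number. Setd2 was lower in every double-knockout library, at 57.8, 87.1, 55.7, 53.9 and 76.1 CPM against 118, 120.1, 99.2 and 114 CPM (log2 fold change -0.77 ± 0.14 (SE), adjusted p = 0.00756, edgeR), while Smad4, floxed in all, was at 92.7, 54.3, 54.4 and 55.4 CPM in the single and 60.1, 114, 38.2, 40.5 and 98.7 CPM in the double knockout, with overlap and no call (log2 fold change 0.13 ± 0.33 (SE), adjusted p = 0.819, edgeR). The Smad4 row counts the whole gene and does not itself show the deletion. Libraries 1, 2 and 5 of the double knockout held 3857 to 4907 counts of Y-linked genes and the other 6 libraries 0 to 28, so that libraries with such counts are found in the double knockout alone. Summed epithelial markers were at 12231 to 14054 CPM in the single and 11445 to 13476 CPM in the double knockout. The 8 muscle markers summed to 2.50 to 4.30 CPM and 1.42 to 3.77 CPM, and none had enough counts to be tested. Summed goblet cell markers were at 8840.4 to 26572 CPM against 2561 to 9952 CPM, with overlap between the genotypes, and small intestinal enterocyte markers were at 394 to 464 CPM against 534 to 1124 CPM, without overlap. Of the markers tested, 1 of 5 goblet cell markers was called lower and another was higher at an unadjusted p under 0.05. Of 6 small intestinal enterocyte markers, 3 were called higher. Over all genes tested, edgeR called 6.76% higher and 6.54% lower, and 15.3% were higher at an unadjusted p under 0.05. Crypt and proliferating cell markers summed to 665 to 830.5 CPM and 709 to 1037 CPM, with 1 of 5 called higher, and leukocyte markers to 70.4 to 181 CPM and 67.6 to 155 CPM, with none of 9 called by edgeR and 1 higher at an unadjusted p under 0.05. The 6 fibroblast markers summed to 10.8 to 26.0 CPM and 18.8 to 57.8 CPM, with overlap, and of 4 tested none was called and 2 were higher at an unadjusted p under 0.05. In RNA of bulk cells, fewer cells of a type and less RNA per cell cannot be told apart, and the part of these differences in the results below was not tested.

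Of the 97 members, 91 passed the filter on low counts, 78 nuclear and all 13 mitochondrial. With edgeR's quasi-likelihood test and Benjamini-Hochberg adjustment over 14593 genes, 1 nuclear member was higher and 4 were lower in the double knockout, and 1 mitochondrial member was higher and none lower. Over all genes tested, 13.3% were called, 6.76% higher and 6.54% lower, against 6.41% of the nuclear members and 7.69% of the mitochondrial members. The nuclear members called were Ndufs5, Cox6b2, Atp5sl and Cox6a1 (lower) and Cox7c (higher), and the mitochondrial one was ATP8. Among the nuclear members 61 of 78 had a negative log2 fold change, which is 78.2% against 50% of all genes, with a median of -0.12 against -0.00060. Mitochondrial members had negative values in 4 of 13, with a median of 0.32. Without replicate 3 of the double knockout, 6 of 13 were negative, with a median of 0.20.

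**Figure D1:**
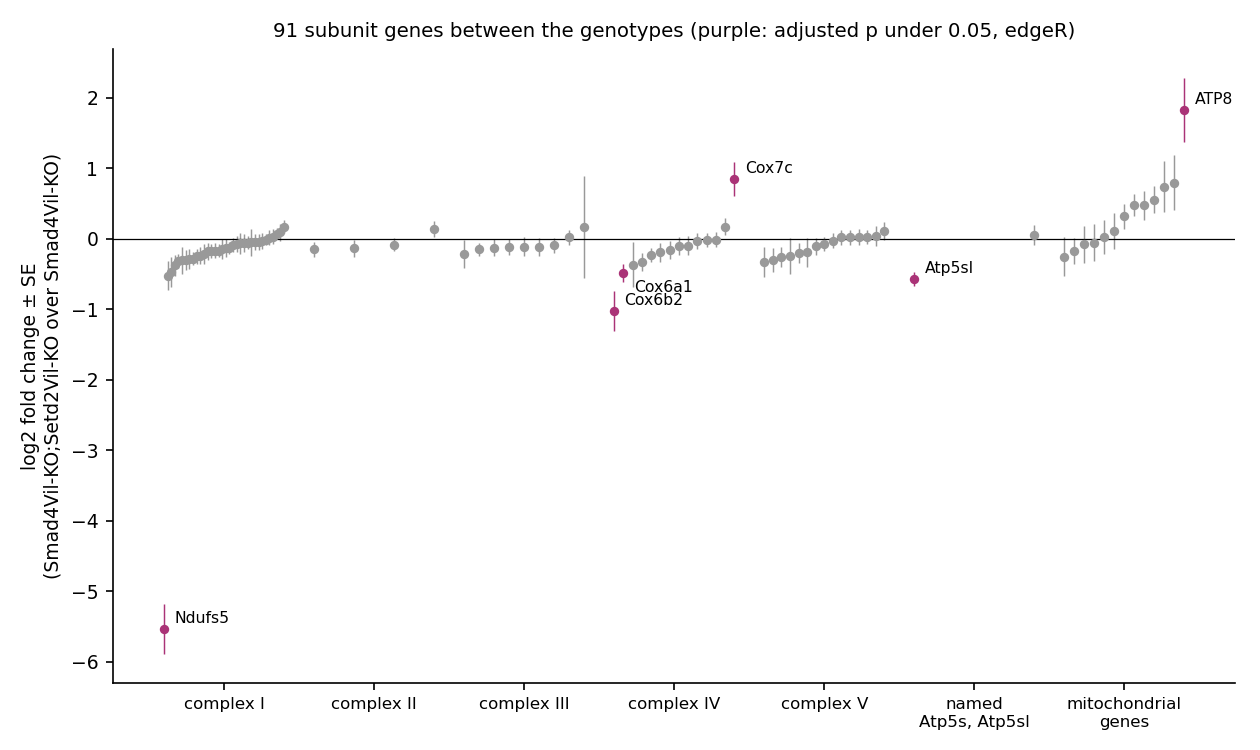
Log2 fold change of the 91 members tested, double knockout over single knockout, with the SE as a bar. Nuclear genes are shown by complex, with Atp5s and Atp5sl apart, and the mitochondrial genes together. The purple points are the 6 genes with an adjusted p under 0.05, and all others lie between -0.52 and 0.80.

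Several of these genes have close copies elsewhere in the genome, and how reads were assigned between such copies was not tested. The largest difference was that of Ndufs5, an accessory subunit of complex I (chromosome 4, 123712710 to 123718202, minus strand, GRCm38), which has an annotated processed pseudogene, BC002163, on chromosome 16 (42955631 to 42955949). Over the 319 bases compared from the start codon of the Ndufs5 transcript, they differ at 2 positions, T81C and A105G (the base of Ndufs5, the position counted from 1 at the A of the start codon, and the base of BC002163), an identity of 99.4%. Bases 61 to 125 of each, from the GENCODE M21 transcripts, are shown because they hold both differences, in capitals.
Ndufs5: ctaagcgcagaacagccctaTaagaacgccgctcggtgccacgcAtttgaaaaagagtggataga
BC002163: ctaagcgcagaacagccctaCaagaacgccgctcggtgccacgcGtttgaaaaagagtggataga

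A read within the compared bases that covers neither position matches both loci equally. In the deposited counts Ndufs5 had 569, 704, 734 and 474 counts in the single knockout and 10, 9, 2, 17 and 21 counts in the double knockout. The row of the pseudogene had 3, 3, 3 and 5 counts and 331, 411, 673, 466 and 559 counts, so that the 2 rows traded places between the genotypes with no overlap in either. In CPM, Ndufs5 was at 36.5, 41.8, 45.1 and 37.6 in the single and 0.641, 0.640, 0.140, 1.34 and 1.63 in the double knockout (log2 fold change -5.54 ± 0.35 (SE), adjusted p = 8.98e-06), the largest fold change of all members. BC002163 rose by 7.22 on the log2 scale (adjusted p = 7.85e-07, edgeR). The sum of both rows was 36.7, 42.0, 45.3 and 38.0 CPM in the single knockout and 21.9, 29.9, 47.2, 38.0 and 45.0 CPM in the double knockout, with means of 40.5 ± 3.90 CPM (SD, n = 4) and 36.4 ± 10.6 CPM (SD, n = 5). The sums overlapped. The pseudogene's row held 0.407 to 1.04% of the sum in the single knockout and 96.4 to 99.7% in the double knockout. Of the 50-base windows of the Ndufs5 transcript used (680 bases, untranslated parts included), 31.1% are found in BC002163 and the others are not. Which bases the reads carried at the 2 positions was not tested, since reads were not used here.

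**Figure D2:**
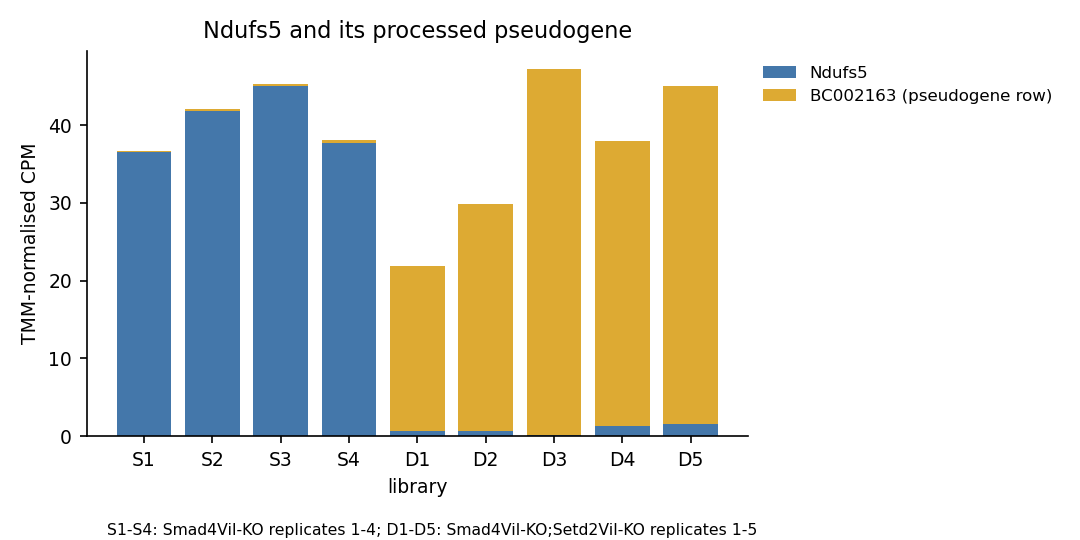
TMM-normalised CPM of Ndufs5 (blue) and of the row of its processed pseudogene BC002163 (yellow), stacked, in each library. The stacks reach 36.7 to 45.3 CPM in the single knockout and 21.9 to 47.2 CPM in the double knockout, while the colour changes entirely between the genotypes.

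The mitochondrial genome has such copies too. A stretch of chromosome 1 (24611535 to 24616197, minus strand, GRCm38) carries 7 annotated pseudogenes that match mitochondrial genes almost base for base. COX2, COX3, ATP6 and ND4L matched theirs without a mismatch over 681, 783, 678 and 294 bases, ND3 with 1 mismatch over 345 bases and ND4 without any over its first 876 bases. COX1 matched from base 1063 to its end at base 1545, with 1 mismatch. ND1, CYTB, ND6 and ATP8 shared no window of 50 bases with another annotated gene, while ND2 and ND5 shared 8.19% and 7.61% of theirs. ATP8 lies between COX2 and ATP6 in the mitochondrial genome and overlaps ATP6 by 43 bases, and the stretch of chromosome 1 between the copies of COX2 and ATP6 was not compared, since it holds no annotated transcript.

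The levels of the 13 mitochondrial genes divided in a like manner, with ND6 and ATP8 as exceptions. Per kb of gene, in the single knockout, COX1 was at 34030 CPM, CYTB at 12499, ND1 at 7927, ND2 at 3189, ND5 at 2979 and ND4 at 2737 CPM per kb. The 5 genes with at least 98.0% of their 50-base windows copied on chromosome 1 were far lower, with COX2 at 178, COX3 at 76.1, ATP6 at 63.1, ND3 at 12.7 and ND4L at 11.3 CPM per kb. COX1 to COX3 encode the catalytic core of 1 enzyme, complex IV, yet the COX1 row stood far above the other 2. ATP8 was lowest at 10.2 CPM per kb with no shared window found, and ND6, the only protein gene on the other strand, was at 204 CPM per kb with no shared window either. How reads with more than 1 match were counted is not given in the sources used here, and the levels of these 5 genes are uncertain for that reason. The level of ATP8 is uncertain as well, since the stretch of chromosome 1 between the copies of COX2 and ATP6 was not compared.

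**Figure D3:**
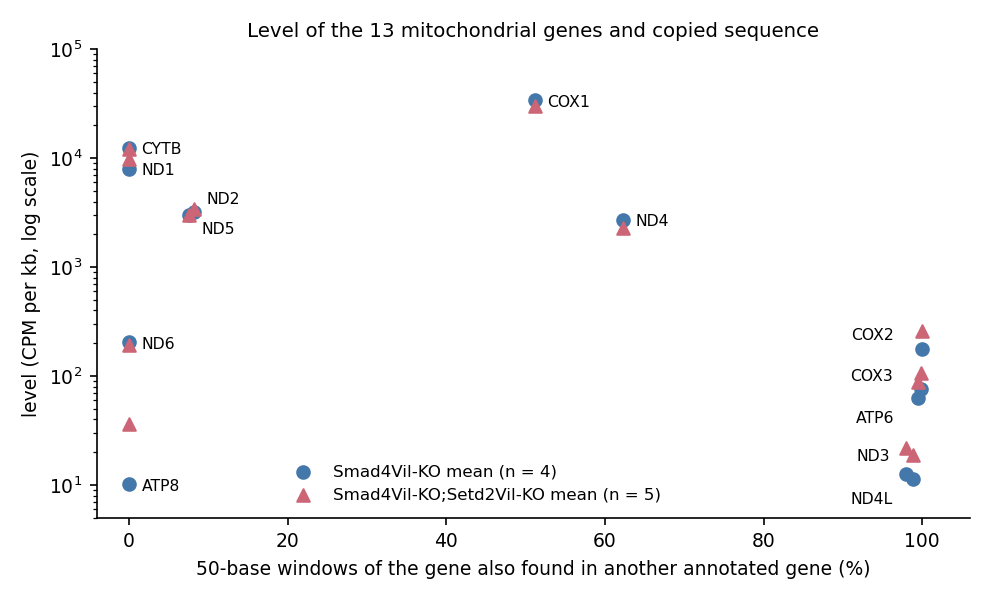
Level of each mitochondrial gene (mean CPM per kb, log scale) against the share of its 50-base windows found in another annotated gene, for the single knockout (circles, n = 4) and the double knockout (triangles, n = 5). The 5 genes at 98.0% or more lie between 11.3 and 262 CPM per kb, while the genes at 62.2% or less lie at 2295 CPM per kb or more except ND6 and ATP8.

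Taken as a share of each library, the 13 mitochondrial genes held 8.12, 8.83, 8.47 and 9.03% of all counts in the single knockout and 5.62, 6.29, 10.3, 9.15 and 9.82% in the double knockout. Replicates 1 and 2 of the double knockout were below, and replicates 3, 4 and 5 above, all 4 single-knockout libraries. The means were 8.61 ± 0.399% (SD, n = 4) and 8.23 ± 2.13% (SD, n = 5). The difference turned positive when replicate 1 or 2 of the double knockout was left out, at 0.28 and 0.11 percentage points. The 84 nuclear genes held 1.61, 1.51, 1.67 and 1.47% in the single and 1.30, 1.40, 1.59, 1.57 and 1.56% in the double knockout. Here too replicates 1 and 2 were the lowest of all 9 libraries, and the other 3 lay within the range of the single knockout. Means were 1.56 ± 0.0902% (SD, n = 4) and 1.48 ± 0.127% (SD, n = 5), a difference smaller than the spread between libraries.

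**Figure D4:**
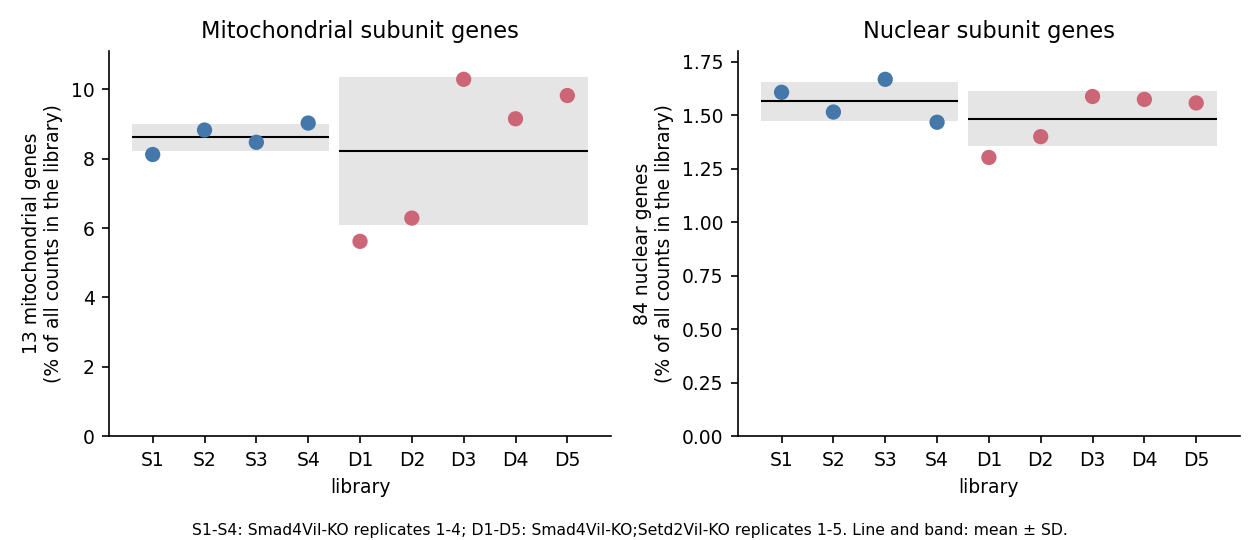
Share of all counts of a library that fell on the 13 mitochondrial (left) and the 84 nuclear members (right), Atp5s and Atp5sl included. The mean and SD of each genotype are drawn as a line and band. D1 and D2, replicates 1 and 2 of the double knockout, are the lowest libraries in both panels, at 5.62% and 6.29% on the left.

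The ratio of mitochondrial to nuclear CPM was 5.05, 5.83, 5.08 and 6.15 in the single knockout and 4.31, 4.49, 6.48, 5.82 and 6.31 in the double knockout. Replicate 1 of the double knockout was the lowest of 9 libraries for 61 of the 78 nuclear genes tested and for 7 of the 13 mitochondrial genes. It also had the lowest sum of differentiated colonocyte markers (2677 CPM, against 4140 to 6779 CPM in the other 8 libraries) and of goblet cell markers (2561 CPM) and the highest of crypt and proliferating cell markers (1037 CPM). Replicates 1 and 2 had the lowest sums of epithelial markers of the 9 libraries (11445 and 11517 CPM, the others 12231 CPM or more). The part of these markers in these values was not tested. Without replicate 1, 50 of 78 nuclear members were negative in place of 61, and their median moved to -0.04. Of the 3 libraries with Y-linked counts, replicates 1 and 2 were the low ones and replicate 5 was not.

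Complex I receives electrons from NADH. Its 35 nuclear members in the table gave 34 tested, of which Ndufs5 was lower and none was higher. Their median log2 fold change was -0.14. It was -0.08 without replicate 1 of the double knockout and -0.04 among the libraries with few Y-linked counts. Their summed level was 3448, 3139, 3484 and 2941 CPM in the single knockout and 2435, 2792, 3177, 3063 and 3140.1 CPM in the double knockout. Core subunits that carry the flavin or the iron-sulfur clusters or line the quinone site had no called difference, and Ndufs1, Ndufs3, Ndufs7, Ndufs8, Ndufv1 and Ndufv2 had log2 fold changes between -0.17 and 0.07. Ndufv1, which binds the flavin and NADH, was at 191, 167, 195 and 152 CPM in the single knockout and 176, 177, 176, 176 and 169 CPM in the double knockout, with overlap. Ndufc2, an accessory subunit of the membrane arm, had the highest value of the complex, at 49.8, 48.4, 52.6 and 45.1 CPM in the single knockout and 50.8, 53.1, 50.1, 63.2 and 58.5 CPM in the double knockout (log2 fold change 0.17 ± 0.09 (SE), adjusted p = 0.232, edgeR). Its groups overlapped.

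Apart from Ndufs5, 2 further subunits of complex I were below the single knockout in every double-knockout library. Ndufb8, an accessory subunit of the membrane arm often used as a mark of assembled complex I, was at 174, 157, 193 and 162 CPM in the single and 137, 155, 139, 124 and 149 CPM in the double knockout (log2 fold change -0.28 ± 0.09 (SE), adjusted p = 0.0583, edgeR). Ndufa1 was at 83.2, 75.3, 80.4 and 73.4 CPM and 40.1, 57.4, 69.6, 61.6 and 72.1 CPM (log2 fold change -0.38 ± 0.15 (SE), adjusted p = 0.113, edgeR). Neither passed the threshold, and both were chosen after their values were seen. In the 19 alternative runs, Ndufb8 was called lower in 4 and Ndufa1 in 0. In all, 6 of the 78 nuclear members (Ndufs5, Ndufb8, Ndufa1, Cox6a1, Cox6b2 and Atp5sl) lay below without overlap and none above, against 8.87% and 8.34% of all genes. Ndufa7 had 0 to 3 counts in each library and did not pass the filter.

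Complex II, succinate dehydrogenase, is part of the tricarboxylic acid cycle as well. None of its 4 genes was called. Sdha, the flavoprotein that binds succinate, had the highest value, at 481, 413, 459 and 388 CPM in the single knockout and 384, 439.5, 517, 524 and 532 CPM in the double knockout (log2 fold change 0.14 ± 0.12 (SE), adjusted p = 0.442, edgeR). Sdhd, 1 of its membrane anchors, had the lowest, at 347, 334, 333 and 313 CPM and 239, 273, 321, 317 and 340.0 CPM (log2 fold change -0.15). Sdhb and Sdhc, the iron-sulfur subunit and the other anchor, had log2 fold changes of -0.14 and -0.09. The groups overlapped for all 4.

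Complex III passes electrons from ubiquinol to cytochrome c. None of its 9 nuclear members was called, and the median log2 fold change was -0.11. Its catalytic subunits Cyc1 (cytochrome c1) and Uqcrfs1 (the Rieske protein) had log2 fold changes of -0.15 and -0.09, and Uqcrc2, a core subunit, 0.02. Uqcrh, the hinge protein beside cytochrome c1, had the lowest value, at 297, 280.4, 306 and 266 CPM in the single and 146, 206, 332, 271 and 279.9 CPM in the double knockout (log2 fold change -0.22 ± 0.19 (SE), adjusted p = 0.471, edgeR). Replicates 1 and 2 of the double knockout were the low ones. Uqcrc1, the partner of Uqcrc2, was listed at only 2.50, 11.9, 1.78 and 2.78 CPM and 15.9, 3.20, 3.36, 1.97 and 2.25 CPM, although Uqcrc2 was at 290.3 CPM or more in every library, and shared no window of 50 bases with another gene. Its value was the highest of the complex (log2 fold change 0.17 ± 0.72 (SE), adjusted p = 0.897) with the widest error, as 1 library of each genotype stood far above the rest.

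Complex IV, cytochrome c oxidase, reduces oxygen, and the nuclear subunits around its mitochondrial core include alternative isoforms. Of 19 nuclear members 14 were tested, Cox6a1 and Cox6b2 were lower and Cox7c was higher. Cox6a1, the ubiquitous isoform of subunit VIa (chromosome 5, 115345642 to 115348981), was at 510.3, 432, 590.0 and 446 CPM in the single knockout. In the double knockout it was at 268, 340.2, 378, 375 and 405 CPM (log2 fold change -0.49 ± 0.13 (SE), adjusted p = 0.0362, edgeR). Every double-knockout library was below every single-knockout one. Of its 50-base windows 12.3% are found in a transcribed pseudogene on chromosome 19. The call was lost when any 1 of 6 libraries was left out, with the term for libraries with Y-linked counts (log2 fold change -0.39, adjusted p = 0.184) and among the libraries with few such counts (log2 fold change -0.39, adjusted p = 0.0638, edgeR).

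Cox6b2, the testis isoform of subunit VIb, was near the limit of these libraries, at 36, 33, 29 and 18 counts in the single and 14, 13, 19, 8 and 10 counts in the double knockout (log2 fold change -1.03 ± 0.28 (SE), adjusted p = 0.0370, edgeR). The groups did not overlap. The call was lost without any 1 of 8 of the 9 libraries, without the filter on low counts and with the replicate block (adjusted p = 0.0501 to 0.113, edgeR). Its ubiquitous partner Cox6b1 was at 352, 347, 370.0 and 326 CPM and 223, 285, 360.3, 361 and 330.0 CPM and was not called (log2 fold change -0.16). Cox7c, subunit VIIc, was at 12.3, 7.37, 14.4 and 7.86 CPM in the single and 13.6, 21.3, 25.1, 16.0 and 18.8 CPM in the double knockout (log2 fold change 0.85 ± 0.24 (SE), adjusted p = 0.0395, edgeR). Replicate 1 of the double knockout lay inside the range of the single knockout. With the term for libraries with Y-linked counts neither Cox6b2 (log2 fold change -0.92, adjusted p = 0.167) nor Cox7c (log2 fold change 0.97, adjusted p = 0.0709, edgeR) was called. Among the libraries with few such counts Cox7c was called (log2 fold change 0.97, adjusted p = 0.0384) and Cox6b2 was not (-0.92, adjusted p = 0.148, edgeR). The Cox7c call was also lost when any 1 of 6 libraries was left out. This row is uncertain, since 53.0% of the 50-base windows of its transcript are found in 3 other annotated genes, a processed pseudogene on chromosome 17 among them, and it was listed below its partners Cox7a2 and Cox7b, at 147 to 172 CPM and 239 to 293 CPM in the single knockout.

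In the other isoform groups of complex IV the ubiquitous isoform held most of the counts in both genotypes. Cox4i1 was at 664, 595, 707 and 572 CPM in the single and 512, 638, 681, 656 and 659 CPM in the double knockout (log2 fold change -0.01), whereas its lung and hypoxia isoform Cox4i2 had at most 2 counts in any library. Cox6a2 and Cox8b, the isoforms of heart and skeletal muscle, had at most 4 counts each, and the testis isoforms Cox7b2 and Cox8c had 0 counts in all 9 libraries, which allows at most 3 counts of each library's total. Cox8a, the ubiquitous partner of Cox8b and Cox8c, was at 424, 377, 453 and 388 CPM and 254, 295, 360.4, 325 and 394 CPM (log2 fold change -0.33 ± 0.12 (SE), adjusted p = 0.101, edgeR), with overlap through double-knockout replicate 5. Cox7a1, the muscle isoform of subunit VIIa, was detected at 22.8, 15.5, 16.6 and 15.9 CPM in the single and 5.19, 10.2, 20.3, 14.7 and 18.0 CPM in the double knockout (log2 fold change -0.37 ± 0.32 (SE), adjusted p = 0.458, edgeR), while the 8 muscle markers together were at 4.30 CPM or less. Cox7a2, its ubiquitous partner, was at 172, 154, 166 and 147 CPM and 109.8, 129.6, 149, 149.7 and 141 CPM (log2 fold change -0.23), and Cox7a2l, which joins complexes III and IV, differed by -0.02.

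Ndufa4, first assigned to complex I and now to complex IV, had the highest value after Cox7c, at 113, 130.4, 147 and 121 CPM and 119, 127, 172, 165 and 137 CPM (log2 fold change 0.17 ± 0.12 (SE), adjusted p = 0.376, edgeR). Cox6c had a log2 fold change of -0.20 and Cox7b of -0.10. Summed over its 19 nuclear members, complex IV was at 3579, 3263, 3805 and 3209 CPM in the single and 2377, 3001, 3489, 3295 and 3387 CPM in the double knockout. Only replicates 1 and 2 of the double knockout lay below the range of the single knockout.

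Complex V had no called nuclear member among 15 tested, and its median log2 fold change was the nearest to 0 of the 5 complexes, at -0.08. The catalytic core was abundant, with Atp5b (subunit beta) at 2002, 1819.5, 1863 and 1674 CPM in the single and 1585, 1558, 1875, 1941 and 2051 CPM in the double knockout and Atp5a1 (subunit alpha) at 1729.5, 1626, 1639 and 1489.6 CPM and 1359.9, 1426, 1607, 1648 and 1648 CPM. Their log2 fold changes were -0.03 and -0.08, and that of Atp5c1, the central shaft, 0.03. Atp5e, the small subunit epsilon of the shaft, had the lowest value, at 125, 121, 119 and 89.6 CPM and 57.1, 64.5, 104, 113 and 114 CPM (log2 fold change -0.33 ± 0.21 (SE), adjusted p = 0.316, edgeR). Atp5l, subunit g of the membrane part, had the highest (log2 fold change 0.11 ± 0.12 (SE), adjusted p = 0.593, edgeR), and 68.5% of its 50-base windows occur in other annotated genes. The 3 genes of the identical ring subunit c were used unequally, with Atp5g3 at 360 to 498 CPM, Atp5g1 at 56.2 to 90.8 CPM and Atp5g2 at 1.73 to 3.68 CPM over the 9 libraries. Of the windows of Atp5g2, 87.4% are shared with other genes, so its level is uncertain.

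Atp5sl, now named Dmac2 and counted among the assembly factors of complex I, was, beside Ndufs5, the only called member that kept its call in every alternative run. It was at 44.1, 38.9, 41.7 and 39.9 CPM in the single knockout and 23.0, 27.5, 26.4, 29.6 and 31.6 CPM in the double knockout (log2 fold change -0.57 ± 0.10 (SE), adjusted p = 0.00572, edgeR). The groups were separate, and the gene shared no window of 50 bases with another (chromosome 7, 25619414 to 25625551). Atp5s, the other member of the table that is a factor rather than a subunit, was at 9.94, 8.20, 9.77 and 9.21 CPM and 9.23, 8.61, 8.88, 9.75 and 11.7 CPM (log2 fold change 0.05).

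Of the 13 mitochondrial genes, ATP8, which encodes a small membrane subunit of the ATP synthase, was called. It had 44, 41, 30 and 15 counts in the single knockout and 114, 90, 129, 158 and 25 counts in the double knockout, or 2.82, 2.44, 1.84 and 1.19 CPM and 7.31, 6.40, 9.02, 12.4 and 1.94 CPM (log2 fold change 1.83 ± 0.45 (SE), adjusted p = 0.0247, edgeR). Replicates 1 to 4 of the double knockout lay above all single-knockout libraries and replicate 5 among them. The call was lost when replicate 2, 3 or 4 of the single or replicate 4 of the double knockout was left out (adjusted p = 0.0532 to 0.0806, edgeR). Whether ATP8 is also copied on chromosome 1 was not tested. ATP6, its neighbour and partner in the proton channel, was at 38.6, 36.8, 44.3 and 52.2 CPM and 46.9, 49.7, 72.0, 72.2 and 57.4 CPM (log2 fold change 0.47 ± 0.16 (SE), adjusted p = 0.0707, edgeR), with overlap. COX2 was at 119, 111, 122 and 136 CPM in the single and 121, 149.7, 261, 199 and 165 CPM in the double knockout (log2 fold change 0.55 ± 0.19 (SE), adjusted p = 0.0757, edgeR), and COX3 at 54.7, 52.3, 61.7 and 70.0 CPM and 52.6, 62.9, 111, 105 and 83.3 CPM (log2 fold change 0.47 ± 0.21 (SE), adjusted p = 0.149, edgeR). In both, replicates 3, 4 and 5 of the double knockout were above the single knockout. ND3 and ND4L, the small membrane subunits of complex I, had log2 fold changes of 0.80 and 0.74 at 2.50 to 13.4 CPM.

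The genes with little or partly copied sequence carried most of the mitochondrial counts and had log2 fold changes from -0.25 to 0.32, with none called. Replicates 1 and 2 of the double knockout were mostly below the single knockout and replicates 3 to 5 mostly above its mean. COX1 alone held 4.80 to 5.39% of all counts in the single knockout and 3.28 to 5.68% in the double knockout, at 50342, 54796, 52347 and 52819.8 CPM against 30138, 37893, 58174, 49385 and 56882 CPM (log2 fold change -0.18 ± 0.18 (SE), adjusted p = 0.541, edgeR). CYTB, the mitochondrial subunit of complex III, was at 14526, 15229.7, 13315 and 14125 CPM and 7856, 8089, 18115, 16369.9 and 18405 CPM (log2 fold change -0.05). Of the complex I genes ND1 had the highest value of this group (log2 fold change 0.32 ± 0.17 (SE), adjusted p = 0.241, edgeR), at 7503, 7244, 7376 and 8222 CPM and 6663, 7461, 12538, 10105 and 10458 CPM. ND2, ND5 and ND6 had log2 fold changes of 0.11, 0.02 and -0.08. ND4, whose first 876 bases are copied, had the lowest value, at 3593, 3919, 3697 and 3877 CPM and 1648, 1829, 4024, 3899 and 4411 CPM (log2 fold change -0.25 ± 0.28 (SE), adjusted p = 0.564, edgeR). In each of COX1, CYTB, ND2, ND4 and ND5, replicates 1 and 2 of the double knockout were below all other libraries.

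Replicates 1 and 2 of the double knockout were thus low in COX1, CYTB, ND2, ND4 and ND5 but within or above the range of the single knockout in the 5 genes with copied sequence and in ATP8. The 5 genes with copied sequence made up 0.259, 0.229, 0.276 and 0.301% of the mitochondrial counts in the single knockout. In the double knockout they made up 0.442, 0.437, 0.442, 0.430 and 0.311%, so that the groups did not overlap, although replicate 5 lay close to the single knockout. Their summed CPM did overlap, at 220.4, 206, 235 and 269 against 228, 269.6, 466, 394 and 317. The share of counts on these genes that came from transcripts of chromosome 1 was not tested.

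**Figure D5:**
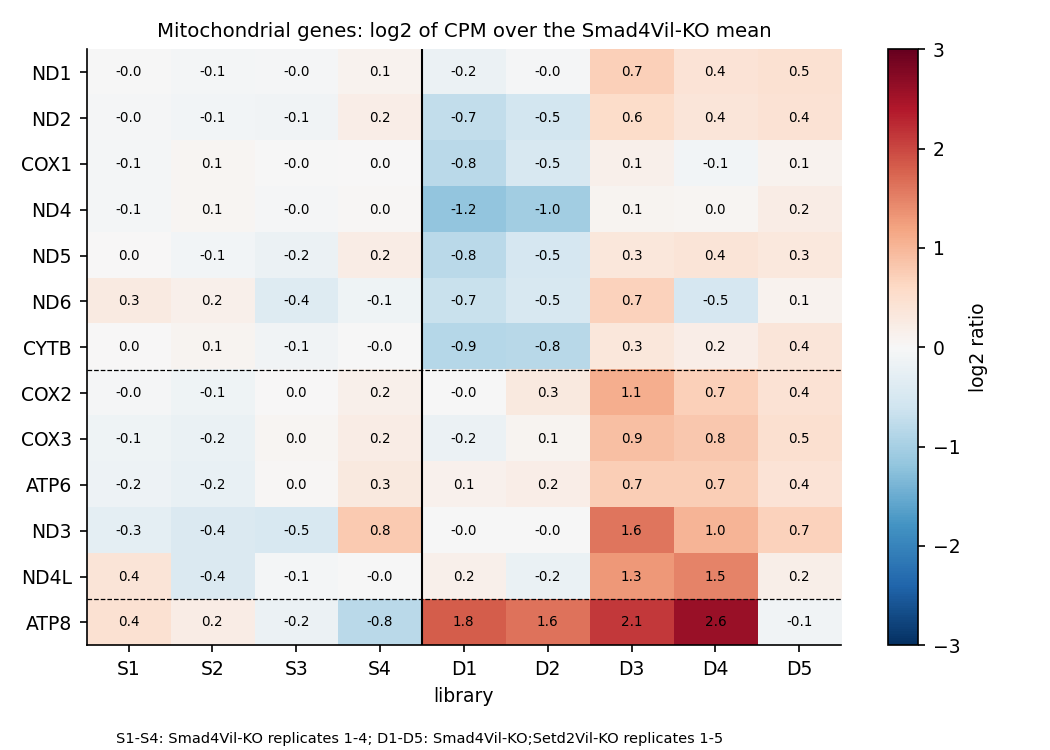
Log2 ratio of each library's CPM to the mean of the 4 single-knockout libraries for the 13 mitochondrial genes, with the 7 genes of little or partly copied sequence on top, the 5 genes with copied sequence in the middle and ATP8 below. D1 and D2 are clearly blue in the top block except for ND1 and close to 0 in the middle block, D3 to D5 are mostly red, and ATP8 is high in D1 to D4.

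The number of mitochondrial genes called depended on which double-knockout libraries were used, at 4 higher without replicate 1 and 1 without replicate 5. The low replicates 1 and 2, and replicate 5, which was not low in mitochondrial share, all held Y-linked counts. Among the libraries with few such counts, 4 of the single and replicates 3 and 4 of the double knockout, 9 of the 13 mitochondrial genes were higher and none lower, where 19.4% of 15138 genes were called (9.29% higher and 10.1% lower), with a median log2 fold change of 0.58. In that fit COX2 differed by 0.92 (adjusted p = 0.00118), COX3 by 0.86 (0.00139), ATP6 by 0.75 (0.00462, edgeR), and ND1 by 0.58 (0.00554), ND2 by 0.47 (0.0161) and ND5 by 0.37 (0.0437, edgeR). ND3, ND4L and ATP8 were the other genes called, while CYTB differed by 0.27, ND6 by 0.22, ND4 by 0.08 and COX1 by 0.04, with no call. A term for such libraries in the fit of all 9 leaves the genotypes to be compared through the same replicates 3 and 4, so it is the same contrast with the spread taken from all libraries and no separate evidence. There, 5 of 13 were higher and none lower, where 8.81% of all genes were called (4.47% higher and 4.33% lower). The nuclear members had 3 higher and 4 lower calls among the libraries with few Y-linked counts, and the share with a negative value was 38 of 78 there and 41 of 78 with the term, in place of 61. The nuclear members' median was within 0.01 of 0 in both.

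The promoters of the nuclear members were searched for 4 motifs of factors known to act on genes of the respiratory chain. RefSeq promoters (GRCm38.p6, 250 bases before to 50 after the start) were matched for 69 of the 84 nuclear members. The core CGCATGCG of the NRF1 motif was found in 9 (13%), against 4.0% of the other tested genes and 2.07% of all promoters of this length. The GABPA motif CCGGAAGT was in 5 (7.25%), against 8.60% and 4.31%, the YY1 motif AAGATGGCG in 8 (11.6%), against 3.33% and 1.64%, and the ESRRA motif TCAAGGTCA in 2 (2.90%), against 0.320% and 0.466%. The YY1 motif lay 88 bases before the start in Atp5j and 22 to 35 bases after a start in the other members with it. In Atp5sl it also lay 53 bases before another start. Whether matches after the start act on the promoter was not tested. Both strands were searched, and no motif contains another. Of the called nuclear genes, Cox6a1 held the NRF1 motif and Atp5sl the YY1 motif, shown in capitals in windows of 30 bases read on the strand of the gene, since both genes were called.
Cox6a1, NRF1, chr5:115349101-115349130, minus strand: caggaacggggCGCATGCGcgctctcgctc
Atp5sl, YY1, chr7:25619430-25619459, plus strand: gttacctggcAAGATGGCGgcgcccagagc
Of the factors themselves, Gabpa was higher in the double knockout, at 63.6, 56.3, 54.2 and 60.3 CPM in the single and 87.9, 89.6, 78.7, 75.8 and 69.8 CPM in the double knockout (log2 fold change 0.46 ± 0.09 (SE), adjusted p = 0.0114, edgeR), with no overlap. Nrf1 (log2 fold change -0.09, adjusted p = 0.551), Yy1 (-0.03, adjusted p = 0.826) and Esrra (-0.22, adjusted p = 0.235, edgeR) were not called. The 5 members with the GABPA motif were Atp5h, Cox8a, Ndufs3, Uqcr11 and Uqcrh, none of which was called.

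Other mitochondrial genes were counted in lists by function, beside the same 6.76% higher and 6.54% lower over all genes. Of 45 assembly factors tested, 1 was higher and 2 lower. Ttc19, which acts on complex III, rose from 21.0, 22.3, 20.6 and 22.3 CPM to 47.0, 49.5, 35.4, 40.4 and 30.1 CPM (log2 fold change 0.91 ± 0.14 (SE), adjusted p = 0.00314, edgeR), with no overlap. Ndufaf5, a complex I factor, and Atpaf2, which assembles the catalytic head of the ATP synthase, fell by 0.45 and 0.38 on the log2 scale.

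Of 25 regulators of mitochondrial DNA and transcription, 2 were higher and 1 lower. Lrpprc, which stabilises mitochondrial mRNAs, rose from 84.2, 88.1, 84.8 and 79.6 CPM in the single to 108, 101, 129, 136 and 108 CPM in the double knockout (log2 fold change 0.47 ± 0.10 (SE), adjusted p = 0.0125, edgeR), and Gabpa was the other. Ppargc1b, a coactivator of mitochondrial gene programmes, fell from 104, 109.7, 98.3 and 104 CPM to 60.7, 73.8, 83.8, 86.9 and 89.1 CPM (log2 fold change -0.40 ± 0.11 (SE), adjusted p = 0.0363, edgeR). All 3 were without overlap. Tfam, which packages mitochondrial DNA, and Polrmt, the mitochondrial RNA polymerase, had log2 fold changes of 0.22 and -0.29 and were not called.

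Genes of coenzyme Q synthesis, whose product carries electrons to complex III, had 1 higher and 4 lower calls among 11 tested, or 45.5%. Over all these lists together, lower calls fell from 10 to 2 without replicate 3 of the single knockout. With the term for libraries with Y-linked counts they fell to 4. Coq4, which holds the synthesis complex together, fell from 11.5, 12.8, 15.7 and 9.77 CPM in the single to 7.37, 5.83, 7.13, 6.45 and 7.75 CPM in the double knockout (log2 fold change -0.85 ± 0.16 (SE), adjusted p = 0.00827, edgeR), and Coq10a from 16.7, 14.4, 14.5 and 16.2 CPM to 8.14, 8.97, 10.3, 7.86 and 10.9 CPM (log2 fold change -0.74 ± 0.13 (SE), adjusted p = 0.00627, edgeR). Coq2 and Coq9 fell by 0.35 and 0.39 on the log2 scale, while Coq10b rose by 0.34. Coq9 alone overlapped between the genotypes. Of 76 mitochondrial ribosomal proteins, Mrpl30 and Mrps31 were higher and Mrpl3, Mrps17 and Mrps34 lower, and of 17 electron and nucleotide carriers Vdac2, the porin of the outer membrane, was higher (log2 fold change 0.30). None of 18 enzymes of the tricarboxylic acid cycle was called by edgeR, with 1 higher and 2 lower at an unadjusted p under 0.05, where 15.3% of all genes were higher and 15.3% lower.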

How the data were processed

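RNA-seq of IECs of mice treated with AOM/DSS was analysed, with 4 libraries of the Smad4Vil-KO and 5 of the Smad4Vil-KO;Setd2Vil-KO genotype. The authors deposited whole-number counts per gene symbol (46095 rows, 27 of them turned into dates and kept without a name), without normalization. The submitters' processing notes name HISAT2 2.0 and mm10. The counting program, annotation, use of strand and handling of reads with several matches are not given in the sources used here, and such reads can be split between copies, so that a fold change may be of 1 locus and not of both. Total counts were 12487129 to 17120202 per library, and a count of 0 allows at most 3 counts, for counting error only.

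Counts were tested in R 4.3.3 with edgeR 4.0.16 (filterByExpr by genotype, TMM, quasi-likelihood test, Benjamini-Hochberg adjustment over 14593 genes, adjusted p under 0.05) over all 9 libraries without covariates. CPM are TMM-scaled, and the SE was computed from the log2 fold change and F of each gene. Members and lists were chosen with earlier results of these data known. The genes named were Setd2 and Smad4, called members, all mitochondrial genes, the highest and lowest of each complex, isoforms, catalytic subunits, members that failed the filter, Ndufs5 with BC002163, and called members of the other lists, at most 5 per list. A gene within this rule is not reported here. Ndufb8, Ndufa1, Tfam, Polrmt and other genes outside that rule were chosen after their values were seen. On simulated counts with 200 changed genes, edgeR recovered 178 with 13 false calls among 14355 genes (79 of 95 at a log2 change of 1). No smaller change was simulated, so the recovery of smaller differences is not known. Windows of 50 bases of principal transcripts (GENCODE M21, GRCm38) were compared with all other genes' transcripts, and mitochondrial genes with those of chromosome 1 by blastn. The NRF1 core was searched in place of a longer form of the motif that had been searched first and had fewer matches, also at a higher share in members than in other genes. DESeq2 1.42.0, limma-voom with sample quality weights (limma 3.58.1), other scalings and filters, each library left out, the replicate number as a block, and libraries with Y-linked counts as a term or left out were the alternatives. Libraries of 1 genotype differed beyond sampling noise and were kept as separate replicates.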

Additional observations from a re-analysis of the deposited data

Results flagged for a closer look

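Of 186 groups of 4 or 5 libraries (the tested members in each genotype and the summed levels), 12 held a library far from the others by Dixon's criterion, of which chance gives about 1 in 20 groups. Replicate 1 of the double knockout was low for Cox4i1 (511.9 CPM, the others 638 to 681), Cox5b (204.8 CPM, the others 270.2 to 294), Ndufb4 (3.59 CPM, the others 5.62 to 5.97) and Ndufv2 (110.6 CPM, the others 137 to 146). The same library was high for Uqcrc1 (15.9 CPM, the others 1.97 to 3.36). In the single knockout, replicate 2 was high for Uqcrc1 as well (11.9 CPM, the others 1.78 to 2.78). Replicate 1 of the single knockout was high for Cox7a1 (22.8 CPM, the others 15.5 to 16.6) and for Sdhc (212.7 CPM, the others 182 to 185). Replicate 4 of the single knockout was low for Ndufa12 (36.0 CPM, the others 47.4 to 49.0) and Uqcrq (130.4 CPM, the others 170.0 to 177), and high for ND3 (7.62 CPM, the others 3.13 to 3.59). Ndufv1 was low in replicate 5 of the double knockout (168.7 CPM, the others 176 to 177).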

How the results depend on the processing

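Depth was low for the called members Cox6b2 and ATP8, which rest on 8 to 36 and 15 to 158 counts per library. Ndufs5, also called, had 2 to 21 counts per library in the double knockout. Nuclear members had 1 higher and 4 lower calls. Higher calls were 0 with the Y-linked term and at an adjusted p under 0.01 and 3 among the libraries with few Y-linked counts, and 0 to 1 with each library left out. Lower calls were 2 with at least 10 counts in every library, with the Y-linked term and at an adjusted p under 0.01, 6 with DESeq2, with limma-voom with quality weights and at an adjusted p under 0.1, and 2 to 5 with a library left out. Mitochondrial members had 1 higher call, against 3 with DESeq2 and at an adjusted p under 0.1, 6 with limma-voom with quality weights (which changes the tool and the weight of each library together), 2 with the replicate block, 5 with the Y-linked term, 9 among the libraries with few Y-linked counts, 0 at an adjusted p under 0.01, and 0 to 4 with a library left out, the 4 without replicate 1 of the double knockout. No mitochondrial member was lower in any alternative. The other lists had 7 higher and 10 lower calls. Higher calls were 4 without the filter and with the replicate block, 11 among the libraries with few Y-linked counts and 3 to 9 with a library left out. Lower calls were 17 with DESeq2, 16 with limma-voom with quality weights, 5 with the replicate block, 4 with the Y-linked term and 2 to 14 with a library left out. Over all genes 986 were higher and 955 lower, against 653 and 632 with the Y-linked term, 455 to 1380 and 392 to 1316 with a library left out, 1402 and 1525 with limma-voom with quality weights, 1406 and 1524 among the libraries with few Y-linked counts, and 1461 and 1331 with DESeq2. The cause of these shifts was not tested. The difference in the share of library counts was -0.38 percentage points for the mitochondrial members, from -0.89 to 0.28 with a library left out, and turned positive without replicates 1 (0.28) or 2 (0.11) of the double knockout. For the nuclear members it was -0.08, and -0.11 to -0.03 with a library left out.

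Ndufs5 and Atp5sl were called in every alternative that could test them (18 and 19). Cox6a1 was called in 11 of 19, and its call was lost without replicates 1, 3 or 4 of the single or 2, 3 or 4 of the double knockout (adjusted p = 0.0512 to 0.121, edgeR), with the Y-linked term (0.184) and among the libraries with few Y-linked counts (0.0638). Cox7c was called in 12 of 19 and lost without replicates 1, 2 or 4 of the single or 2, 3 or 4 of the double knockout and with the Y-linked term (adjusted p = 0.0709, edgeR). ATP8 was called in 15 of 19 and lost without replicates 2, 3 or 4 of the single or 4 of the double knockout. Cox6b2 was called in 6 of 18. Its call was lost without the filter, with the block, with the Y-linked term, among the libraries with few Y-linked counts, and without each library except replicate 3 of the double knockout. These 4 kept their direction in all alternatives run, whereas 37 nuclear and 6 mitochondrial members changed sign in at least 1 of 19. Smad4, at 0.13, was at -0.18 with limma-voom with quality weights, -0.14 with the replicate block, -0.71 with the Y-linked term, -0.70 among the libraries with few Y-linked counts, and from -0.11 to 0.37 with a library left out, negative without replicates 2 (-0.11) or 5 (-0.01) of the double knockout. Replicate numbers did not pair the libraries (correlations of deviations from -0.10 to 0.09 over numbers 1 to 4), and with the replicate number as a block the nuclear members had 1 higher and 3 lower calls.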
